A study of Quercus lobata with 12 samples.

Results

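Leaf gene expression was compared between 2 maternal families of valley oak (*Quercus lobata*), LAY-15 and YORK-09, using all 4 seedlings of each family, which are 8 of the 12 seedlings sequenced in the study. The members were taken by family name from the sample labels. Earlier results of these data were known when they were chosen, so the choice was not blind to the data. Each family comes from open-pollinated acorns of a single tree, LAY-15 at Laytonville and YORK-09 at York Mountain Road in California, so family, mother tree and site of origin cannot be told apart. The seedlings of a family share a mother, and their fathers are unknown. All 8 grew in a greenhouse and were about 5 months old when the experiment began. They were pruned to 10 cm and placed in a growth chamber, with treated and control seedlings kept apart. Leaves were taken at the end of the experiment, so the leaves measured were regrowth.

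In each family 2 seedlings were sprayed daily for 27 days with 50 µM 5-Azacytidine in the surfactant TWEEN 20, and 2 control seedlings received the surfactant solution alone. The study chose these families because their treated and control plants differed strongly in phenotype. LAY-15-03 and YORK-09-10 were controls and LAY-15-09 and YORK-09-37 were treated, and RNA of these 4 seedlings was extracted on day 30 of October. These are called the late seedlings here. RNA of the early seedlings was extracted on day 19 in LAY-15, from the control LAY-15-30 and the treated LAY-15-34, and on day 16 in YORK-09, from the control YORK-09-03 and the treated YORK-09-08. Family and extraction day cannot be told apart in the early seedlings, and day 30 is the only day on which both families were extracted. The family HV-11, from Hidden Valley, with 4 seedlings, entered none of the main fits and is given only as a description.

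5-Azacytidine is a cytosine analog that is built into DNA and blocks the enzymes that copy methyl marks onto new DNA strands. DNA methylation in plants silences transposons and some genes. Trees of an outcrossing species such as an oak differ from each other at many places in the genome, including genes that are present in one tree and missing or silent in another. Reads of an allele that differs from the reference genome can also fail to map to it. Such differences are inherited by the seedlings of a mother tree, and pollen from different fathers adds variation among them. These statements are background and were not measured here.

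The reads counted on genes ran from 9926728 to 11570198 per seedling, and 25856 to 27122 of the 39373 genes had at least 1 count. The 10 most counted genes held 5.27% to 11.7% of a seedling's counts, and the 2 lowest shares, 5.27% and 7.25%, were those of the early YORK-09 seedlings. The scaling factors of edgeR's TMM method ran from 0.885 to 1.20. No seedling's column repeated another, since pairs within a family differed far beyond sampling noise, with a chi-square per degree of freedom of 42.0 to 149 over 12 pairs. The identifiers are not paired with gene names in the sources used here, and 0 of them matched the 45898 genes of the RefSeq table, so the genes are described by counts, and leaf marker genes could not be checked. The strand setting of the count was not given in the sources used here, so counts of genes that overlap or lie antisense to each other are uncertain, as are those of near-identical copies. In whole leaves, fewer cells of a type and less RNA per cell cannot be told apart.

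The seedlings were first compared over all genes. Family held 24.4% of the squared distances between the 8 seedlings, computed after DESeq2's variance stabilizing transformation, against a mean of 14.3% over the 35 ways to split them into 4 and 4 (exact permutation test, one-sided p = 0.0571). Early against late extraction held 15.6% (exact permutation p = 0.371) and treatment held 8.88% (exact permutation p = 0.971). Among the 4 late seedlings, family held 32.7% against a mean of 33.3% over the 3 possible splits (exact permutation p = 0.667), a design in which p cannot go below 0.333. The share held by family was 22.8% to 32.1% when each seedling was left out in turn, against a mean of 16.7% over the possible splits. Without LAY-15-30 it was 23.9% (exact permutation p = 0.143).

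The seedling LAY-15-30 lay apart from the others. On the first principal component, which held 40.5% of the variance, LAY-15-30 was at 131 and LAY-15-34, the other early seedling of the family, at 71.9, while the other 6 lay between -65.0 and -7.79. The mean distance was 150 between seedlings of LAY-15, 127 between seedlings of YORK-09 and 152 between seedlings of different families, so pairs of LAY-15 seedlings were about as far apart as pairs from different families. Without LAY-15-30 the mean distances were 129 within LAY-15 and 137 between families. For 5 of the 8, the closest other seedling was a member of its own family. The exceptions were all late seedlings, LAY-15-09, YORK-09-10 and YORK-09-37.

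**Figure D1:**
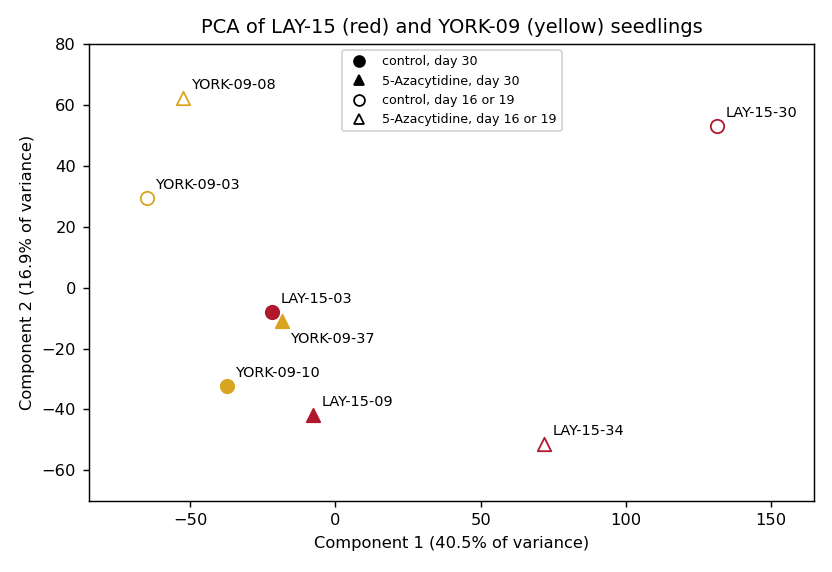
Positions of the 8 seedlings on the first 2 principal components of the variance-stabilized counts, with the share of variance on each axis. Points are single seedlings, red for LAY-15 and yellow for YORK-09. LAY-15-30 (131) and LAY-15-34 (71.9) sit on the right, and the 4 late seedlings of both families lie close together.

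Spread within the families was described by the biological coefficient of variation, the relative spread of a gene's level between seedlings beyond counting noise. With treatment and early or late day in the model it was 0.538 in LAY-15 and 0.525 in YORK-09, and 0.613 over both families. Without these covariates it was 0.653 and 0.559, and the LAY-15 value was 0.570 when LAY-15-30 was left out. The difference between the families was not tested.

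The family difference was tested gene by gene in 20254 genes that passed the filter on low counts, with treatment and early or late day as covariates. edgeR's quasi-likelihood test called 0 genes (0%) at a Benjamini-Hochberg adjusted p-value under 0.05, and its smallest adjusted p-value was 0.187. Under an unadjusted p of 0.05 there were 768 genes (3.79%) with higher counts in LAY-15 and 786 (3.88%) with higher counts in YORK-09, together 7.67% of the genes tested. limma-voom also called 0 genes, with 2368 under an unadjusted p of 0.05 and a smallest Benjamini-Hochberg adjusted p-value of 0.106. DESeq2, the tool the study used, called 625 genes with the same model, of which 266 (1.31%) were higher in LAY-15 and 359 (1.77%) were higher in YORK-09, and it put 3063 genes under an unadjusted p of 0.05. The split by direction depended on the model, since DESeq2 without covariates called 464 genes higher in LAY-15 and 354 higher in YORK-09, and with treatment alone 364 and 341. limma-voom split its 2368 genes into 1403 higher in LAY-15 and 965 higher in YORK-09. A single edgeR fit among 22 alternatives made calls, that without covariates, with 14 genes.

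The DESeq2 count depended on which seedlings were in the fit. It was lower without any of the early seedlings, at 297 without LAY-15-34, 310 without YORK-09-03, 331 without YORK-09-08 and 423 without LAY-15-30. It was higher without any of the late seedlings, at 857 without LAY-15-09, 1008 without YORK-09-10, 1291 without LAY-15-03 and 1331 without YORK-09-37. The fits with a seedling left out tested 20788 to 21056 genes. With the exact extraction day in place of early or late day, DESeq2 called 141 of 20254 genes. In that model the family difference rests on the seedlings of day 30.

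A gene was also counted where all 4 values of one family lay above all 4 of the other. There were 639 such genes (3.15% of those tested) higher in LAY-15 and 745 (3.68%) higher in YORK-09. Their median absolute log2 fold changes were 1.38 and 1.41, against 0.412 over all genes tested. These genes and the DESeq2 calls were chosen on the same counts. Fold changes above those of all genes, and genes shared by both lists, thus follow in part from the choice. The genes called by DESeq2 had medians of 2.61 in the direction of LAY-15 and 2.84 in that of YORK-09, and 194 of the 266 and 265 of the 359 had no overlap between the families.

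The 4 genes that ranked first in the edgeR test had counts that did not overlap between the families. QL07p044148, of LAY-15, had 99, 277, 161 and 124 reads in LAY-15-03, LAY-15-09, LAY-15-30 and LAY-15-34. YORK-09 had a single read of it, in YORK-09-08, and 0 in the other 3 seedlings. Every LAY-15 seedling thus had far more reads than any YORK-09 seedling. Its mean level was 16.8 ± 8.63 CPM (counts scaled to the normalized library size, mean ± SD, n = 4) in LAY-15 and 0.0204 ± 0.0409 (n = 4) in YORK-09, at least 62.1-fold higher in LAY-15 when 3 reads per library are taken as the floor. The fitted log2 fold change was 9.01 (SE 0.866) with an adjusted p of 0.187 from edgeR's quasi-likelihood test and 4.16e-11 from DESeq2. The HV-11 seedlings had 3, 40, 0 and 91 reads of this gene, so only 2 of the 4 reached 10 reads.

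QL03p022401 had 185, 206, 125 and 141 reads in the LAY-15 seedlings in the same order, and 19, 19, 12 and 21 in YORK-09-03, YORK-09-08, YORK-09-10 and YORK-09-37. Both families expressed this gene, at steady levels within each. The means were 16.6 ± 4.30 CPM (SD, n = 4) and 1.57 ± 0.305 CPM (SD, n = 4), a ratio of 10.5. The log2 fold change was 3.36 (SE 0.327), with an adjusted p of 0.187 from edgeR and 2.45e-17 from DESeq2. All HV-11 seedlings, with 203, 68, 109 and 112 reads, lay above all YORK-09 seedlings.

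QL11p006190 had 182, 142, 151 and 151 reads in the YORK-09 seedlings and 1, 0, 1 and 0 in those of LAY-15. The YORK-09 values were close to each other, at 14.0 ± 1.68 CPM (SD, n = 4), and LAY-15 was at 0.0491 ± 0.0567 CPM (SD, n = 4). The level was at least 46.6-fold higher in YORK-09 against the same floor, with a fitted log2 fold change of -7.92 (SE 0.709) and an adjusted p of 0.187 from edgeR and 7.24e-11 from DESeq2. HV-11 had 78, 2, 6 and 62 reads.

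QL11p006325 had 247, 260, 148 and 1120 reads in YORK-09 and 1, 1, 0 and 0 in LAY-15. The family mean of 40.4 ± 43.1 CPM (SD, n = 4) rests largely on YORK-09-37, at 105 CPM, while the other 3 lay between 15.1 and 21.3 CPM. The level was at least 134-fold higher in YORK-09, and at least 62.6-fold without YORK-09-37, with a fitted log2 fold change of -9.25 (SE 0.855) and an adjusted p of 0.187 from edgeR and 3.02e-13 from DESeq2. HV-11 had 192, 0, 0 and 109 reads. The 2 seedlings with reads, HV-11-05 and HV-11-40, were also the 2 with the most reads of QL11p006190 in HV-11. In identifier order, 2 genes lie between QL11p006190 and QL11p006325. Neither passed the filter, and their highest count was 0 in LAY-15 and 83 in YORK-09.

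**Figure D2:**
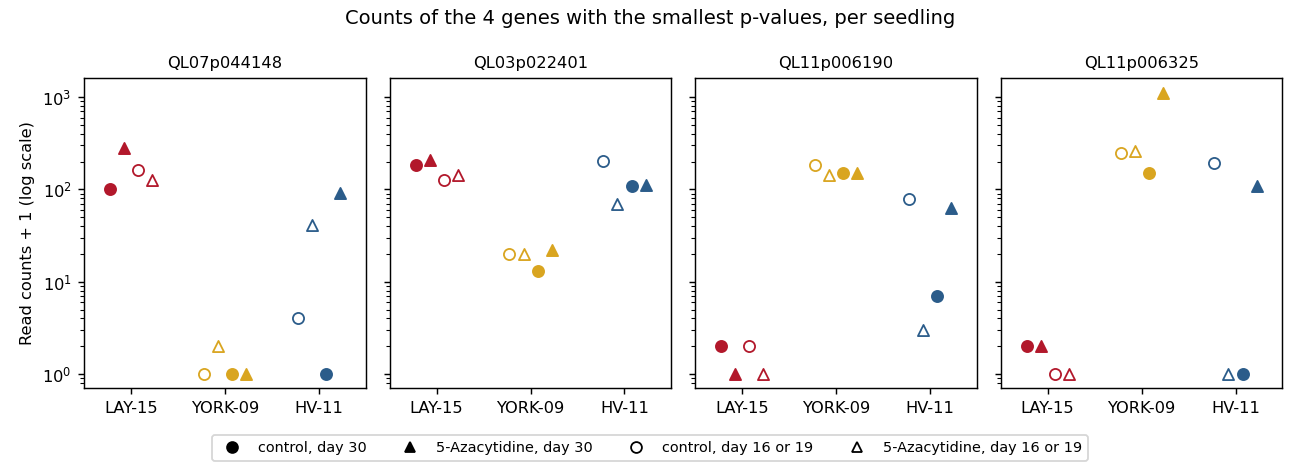
Read counts plus 1, on a log scale, of the 4 genes that ranked first by p-value, in each seedling of LAY-15 (red), YORK-09 (yellow) and HV-11 (blue). Circles are controls, triangles treated seedlings, filled symbols day 30 and open symbols the early days. LAY-15 and YORK-09 do not overlap in any panel. For 3 of the 4 genes, some HV-11 seedlings had 6 reads or fewer and others 40 or more. Of these 3, only QL11p006325 had an HV-11 seedling within the range of the higher family.

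These 4 genes were picked for their p-values, so their separation is a description. All 4 kept their direction in each of the 44 alternative fits. Over these fits the adjusted p from edgeR ran from 0.0295, without covariates, to 1.00. From DESeq2 it was above 0.05 for QL07p044148 on day 30 alone (0.596) and for QL03p022401 in the control seedlings alone (0.0716). Without LAY-15-30 their log2 fold changes were 8.66, 3.42, -8.31 and -9.15 in the order given above, with an adjusted p of 0.306 from edgeR for each. The late and the early seedlings both entered the choice of these genes, and for 3 of them the lower family had 0 or 1 reads, so that the log2 CPM difference depends on the prior count of 2. On the log2 CPM scale the LAY-15 minus YORK-09 difference was 6.51 late and 5.96 early for QL07p044148, 3.53 and 2.92 for QL03p022401, -6.00 and -5.85 for QL11p006190 and -7.11 and -6.80 for QL11p006325.

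The next 8 genes in each direction by edgeR p-value are described without identifiers. They were picked on the same counts, so their fold changes, DESeq2 calls and lack of overlap follow in part from that choice. Over all genes tested, DESeq2 called 1.31% higher in LAY-15 and 1.77% higher in YORK-09. The shares with no overlap were 3.15% and 3.68%. The 8 higher in LAY-15 had log2 fold changes of 2.04 to 10.7 and adjusted p-values of 0.245 to 0.263 from edgeR's quasi-likelihood test, and all 8 were called by DESeq2 and had no overlap between families. One of them had 359, 257, 1265 and 133 reads in LAY-15 and 2, 2, 0 and 0 in YORK-09, at least 184-fold higher in LAY-15 and at least 93.7-fold without LAY-15-30. Another had 231, 274, 135 and 180 reads in LAY-15 and 0 in every YORK-09 seedling, at least 76.8-fold higher. In HV-11 the first of these had 1, 4, 0 and 0 reads and the second 1, 1, 0 and 0, so both were near or at 0 outside LAY-15. Over the 8 genes, 5 reached 10 reads in no HV-11 seedling, 2 in all 4 and 1 in some.

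The 8 genes higher in YORK-09 had absolute log2 fold changes of 2.05 to 8.07 and adjusted p-values of 0.245 to 0.263 from edgeR's quasi-likelihood test. DESeq2 called all 8, and 7 had no overlap between families. One had 763, 498, 430 and 394 reads in YORK-09 and 44, 12, 42 and 58 in LAY-15. Another had 200, 71, 207 and 30 reads in YORK-09 and 0, 0, 0 and 1 in LAY-15, with 1, 176, 366 and 99 in HV-11. The spread among the YORK-09 seedlings was thus wider in the second than in the first. All 8 genes reached 10 reads in at least 1 HV-11 seedling, 3 of them in all 4 and 5 in some.

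The most counted genes among the DESeq2 calls had families that lay closer together. The one higher in LAY-15 had 11786, 16028, 9052 and 17107 reads in LAY-15 and 1839, 8275, 5795 and 8265 in YORK-09. Its log2 fold change was 1.43, with an adjusted p of 0.584 from edgeR and 0.0302 from DESeq2, and it lost the DESeq2 call without LAY-15-30 (adjusted p of 0.154). The one higher in YORK-09 had 4460, 8535, 11324 and 6532 reads there and 2603, 3139, 59 and 937 in LAY-15, lowest in LAY-15-30. Its log2 fold change was -2.73 (SE 0.915), with an adjusted p of 0.616 from edgeR and 0.0234 from DESeq2. Without LAY-15-30 the log2 fold change was -1.96, with an adjusted p of 0.684 from edgeR and 0.00519 from DESeq2. The same gene ranged from 142 to 105165 reads among the HV-11 seedlings.

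Some genes were detected in one family only, with at least 10 reads in all 4 of its seedlings and 3 or fewer in all 4 of the other. Of the 16582 genes with at least 10 reads in every LAY-15 seedling, 20 (0.121%) were of this kind, and of the 17253 with at least 10 in every YORK-09 seedling, 27 (0.156%) were. The other family had 0 reads in every seedling for 8 of the 20 LAY-15 genes and 4 of the 27 YORK-09 genes. Most of these genes had few reads, with a median over genes of 37.2 reads per seedling in LAY-15 and 34.5 in YORK-09. Only 3 of the 20 and 4 of the 27 had a median of 100 or more. DESeq2 called 19 of the 20 and 21 of the 27, which are all that passed the filter, but the genes were chosen on the same counts. At such depths 3 or fewer reads do not show that a gene is absent or silent in the other family.

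HV-11 was not used to choose these genes, so its counts were an independent reading. Of the 20 LAY-15 genes, 10 reached 10 reads in no HV-11 seedling, 9 in some of the 4 and 1 in all 4. Of the 27 YORK-09 genes, 2 reached it in none, 23 in some and 2 in all. Detection in some but not all HV-11 seedlings was thus seen for 45% and 85.2% of the genes, against 2.88% of the 15509 genes with at least 10 reads in all 8 LAY-15 and YORK-09 seedlings. Those 15509 genes have higher counts, and no match for level was made.

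**Figure D3:**
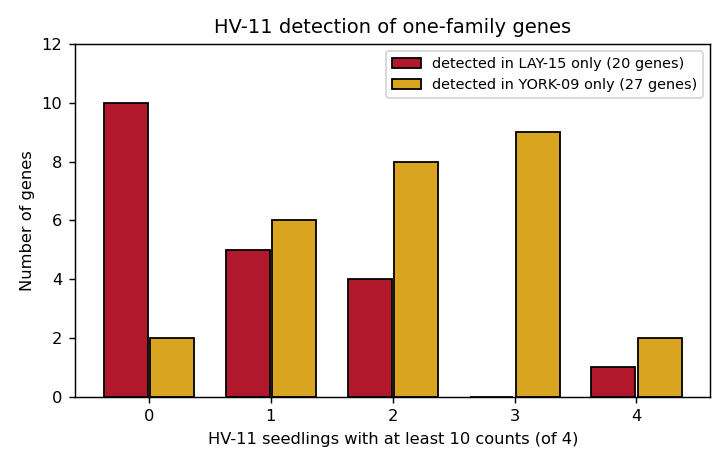
Number of genes detected in LAY-15 only (red, 20 genes) and in YORK-09 only (yellow, 27 genes), by how many of the 4 HV-11 seedlings had at least 10 reads of the gene. Bars are gene counts. The LAY-15 genes are most often at 0 HV-11 seedlings (10 genes) and the YORK-09 genes at 3 (9 genes).

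Over the larger lists HV-11 was not on one side throughout. Its mean log2 CPM was nearer to YORK-09 for 65.4% of the 266 DESeq2 genes higher in LAY-15 and for 52.6% of the 359 higher in YORK-09, against 57.8% of all genes tested. The HV-11 seedlings differed among themselves on these DESeq2 genes, with a median SD of 0.897 and 0.998 on the log2 scale against 0.462 for all genes tested. For the 639 and 745 genes with no overlap, the median SD was lower, at 0.576 and 0.526. HV-11 was nearer to YORK-09 for 68.2% and 58.4% of them. Of 886 genes with no overlap and a difference of at least 1 on the log2 scale, HV-11-33 was nearer to LAY-15 for 60.4% and HV-11-40 for 28.4%, with 40.2% in HV-11-05 and 46.5% in HV-11-34.

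The late and the early seedlings are different plants, so each set gave its own estimate of the difference between LAY-15 and YORK-09. The early estimate sets day 19 against day 16, so family and extraction day cannot be told apart in it. Over the 20254 genes, the 2 estimates had the same sign for 54.4%, with a Pearson correlation of 0.171 across genes, which are not independent replicates. Without LAY-15-30 these were 53.5% and 0.170. The control and the treated seedlings, split the other way, had the same sign for 57.9% and a correlation of 0.359. In each split the sets share no library. The control and the treated sets both hold early seedlings of day 19 in LAY-15 and of day 16 in YORK-09. An effect of extraction day could thus enter both sets alike, and this was not tested.

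The share of genes with the same sign in the early seedlings was highest among genes with a late difference above 4 on the log2 scale. Below 4 it rose with the late difference in the direction of YORK-09 but not in that of LAY-15. Of 57 genes higher in LAY-15 by more than 4 on the log2 scale in the late seedlings, 80.7% were also higher in LAY-15 in the early ones, with median differences of 4.67 late and 1.56 early. Of 57 genes higher in YORK-09 by as much, 86.0% were higher there in the early ones, with medians of -4.84 and -2.81. For late differences between 2 and 4 the shares were 52.7% of 383 genes in the direction of LAY-15 and 74.2% of 364 in that of YORK-09. Between 1 and 2 they were 50.3% of 1064 genes and 68.4% of 887. Under 1 they were 53.9% of 8919 genes and 52.7% of 8523. Read the other way, early differences above 4 had the same sign in the late seedlings for 53.9% of 295 genes higher in LAY-15 and 62.8% of 379 higher in YORK-09. For early differences between 2 and 4 the shares were 62.7% of 1302 genes and 56.2% of 1569. No order between the late and the early readings held over these bands and directions, and no difference between them was tested.

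**Figure D4:**
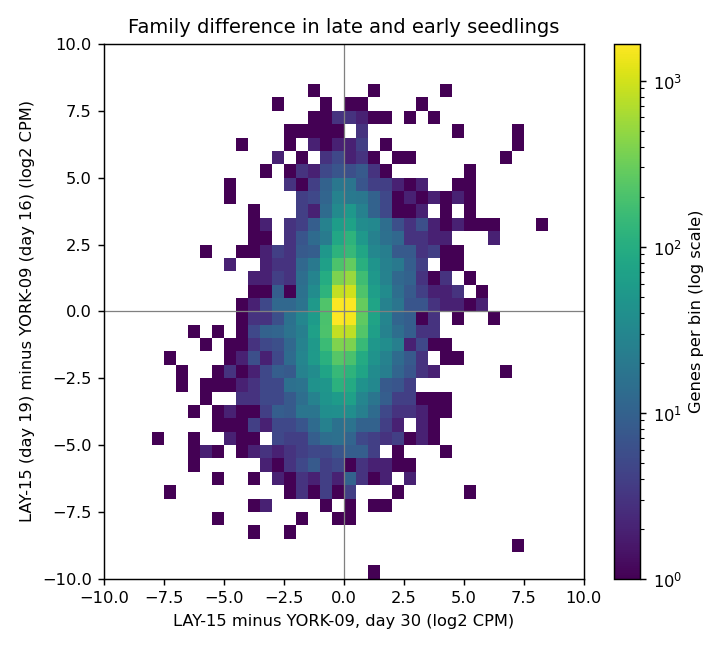
LAY-15 minus YORK-09 difference of each of 20254 genes, on the log2 CPM scale, in the 4 late seedlings (x axis) and the 4 early seedlings (y axis). Colour gives the number of genes per bin on a log scale. The cloud is taller than wide, and only 54.4% of genes have the same sign on both axes.

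DESeq2 run on each set made the same contrast in counts. DESeq2 called 184 genes (0.901% of 20428 tested) on day 30, 86 higher in LAY-15 and 98 in YORK-09. In the early seedlings, where family and extraction day cannot be told apart, it called 2397 genes (11.2% of 21489 tested), 1246 and 1151. edgeR's quasi-likelihood test called 0 genes in either set, with 887 under an unadjusted p of 0.05 on day 30 and 3421 in the early seedlings. Of the genes DESeq2 called, 52 were called in both sets in the same direction, 13 higher in LAY-15 and 39 in YORK-09, which are 28.3% of the late and 2.17% of the early calls. A further 17 genes were called in opposite directions, 9.24% of the late calls. Of the 147 late calls that were tested in the early seedlings, 113 (76.9%) had the same sign there.

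The difference between the sets was tested directly as an interaction of family with early or late day. Early was day 19 in LAY-15 and day 16 in YORK-09, so family and extraction day cannot be told apart in this interaction. edgeR called 0 of 20254 genes, with a smallest Benjamini-Hochberg adjusted p-value of 0.0619. It put 2517 genes (12.4%) under an unadjusted p of 0.05. DESeq2's likelihood ratio test called 986 of the 20254 genes. With each seedling left out in turn, the 2517 genes became 1360 (6.51%) without LAY-15-03 to 3537 (16.9%) without LAY-15-34. The interaction of family with treatment gave 0 genes with edgeR and a smallest Benjamini-Hochberg adjusted p-value of 0.841. With edgeR 1133 genes (5.59%) were under an unadjusted p of 0.05. DESeq2's likelihood ratio test called 119 of the 20254 genes. The 1133 genes were 2199 without LAY-15-03 and 601 without LAY-15-34.

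Each seedling was also read on genes chosen without it, namely those with no overlap between the families and a difference of at least 1 on the log2 scale among the other 7. The 4 early seedlings were nearer to their own family for most of these genes, at 76.4% of 1025 genes for LAY-15-30, 80.5% of 983 for LAY-15-34, 79.5% of 1033 for YORK-09-03 and 74.0% of 1168 for YORK-09-08. The late YORK-09 seedlings were so for 64.0% of 1379 genes (YORK-09-10) and 55.1% of 1607 (YORK-09-37). The late LAY-15 seedlings were nearer to YORK-09 than to LAY-15 for most genes, with 39.3% of 1747 on the LAY-15 side for LAY-15-03 and 46.2% of 1477 for LAY-15-09. Over all genes tested the order was much the same. The early seedlings were nearer to their own family for 62.4% (LAY-15-30), 62.4% (LAY-15-34), 63.9% (YORK-09-03) and 59.2% (YORK-09-08) of genes, the late YORK-09 seedlings for 56% (YORK-09-10) and 50% (YORK-09-37), and the late LAY-15 seedlings for 41.6% (LAY-15-03) and 43.5% (LAY-15-09). The low shares of the late LAY-15 seedlings were thus also seen without any choice of genes. A left-out seedling's own-family mean rests on fewer seedlings than the mean of the other family. For each late LAY-15 seedling, that mean includes both early ones, LAY-15-30 and LAY-15-34, which lay apart from the others. The part of this in the low shares was not tested.

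**Figure D5:**
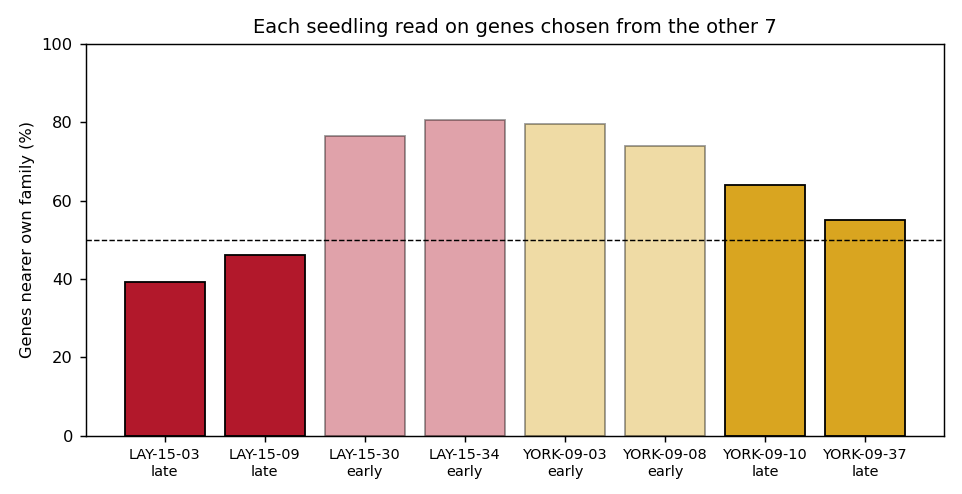
Share of genes, in percent, for which each seedling lay nearer to its own family, on genes chosen from the other 7 seedlings. Dark bars are late and pale bars early seedlings, red for LAY-15 and yellow for YORK-09, and the dashed line marks 50%. The 4 early seedlings lie between 74.0% and 80.5%, and both late LAY-15 seedlings lie below the line.

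The repeat without LAY-15-30 tested 20914 genes. edgeR again called 0 (0%), with a smallest Benjamini-Hochberg adjusted p-value of 0.306 and 1222 genes (5.84%) under an unadjusted p of 0.05, 610 higher in LAY-15 and 612 in YORK-09. DESeq2 called 178 genes (0.851%) higher in LAY-15 and 245 (1.17%) higher in YORK-09. Of its 423 calls, 276 were also among the 625 with all 8 seedlings, each in the same direction, which is 65.2% of the shorter and 44.2% of the longer list. The 100 genes ranked first by edgeR shared 52 between both fits. With 7 seedlings 914 genes (4.37%) higher in LAY-15 and 1030 (4.92%) higher in YORK-09 had no overlap, a looser requirement with 3 seedlings in LAY-15.

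The first gene in each direction of this repeat showed where LAY-15-30 departed. The one higher in LAY-15 had 303, 167 and 64 reads in LAY-15-03, LAY-15-09 and LAY-15-34 but 0 in LAY-15-30, against 4, 2, 16 and 5 in YORK-09. Its log2 fold change without LAY-15-30 was 4.87, with an adjusted p of 0.306 from edgeR. The one higher in YORK-09 had 92, 69, 135 and 125 reads there and 4, 2 and 2 in the same 3 LAY-15 seedlings, with 21 in LAY-15-30. Its log2 fold change was -5.15, with an adjusted p of 0.306 from edgeR. LAY-15-30 was thus on the YORK-09 side for the former gene and between the families for the latter.

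The calls were also split by expression level, with no test. In 4 equal classes of mean log2 CPM from low to high, DESeq2 called 3.75%, 3.89%, 2.98% and 1.72% of the genes, and 7.86%, 7.60%, 6.70% and 5.17% had no overlap. The median absolute log2 fold change was 0.672 in the lowest class and 0.297 in the highest. Of the genes detected in one family only that passed the filter, 32 were in the lowest class and 0 in the highest.

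The calls were also placed by identifier, the only annotation in the table. The share called by DESeq2 ran from 1.5% to 5.17% over the 12 large identifier prefixes, and was 8.54% (17 of 199 genes) for the small remaining one. Genes called in one direction often stood next to each other in the identifier order of the genes tested. Genes that did not pass the filter were skipped in this order, so neighbours and runs can have other genes between them. A neighbour called in the same direction was found for 15.4% of the 266 genes higher in LAY-15, against 2.43% of the other genes tested, and for 25.1% of the 359 higher in YORK-09, against 3.03%. The shares for genes with no overlap were 14.4% and 19.3%, against 5.91% and 6.69%. The calls fell into 494 single genes, 52 runs of 2, 5 runs of 3 and 3 runs of 4. Without the strand setting, neighbours that overlap may have been given the same transcript's reads, and this was not tested.

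Of the 3 runs of 4 genes, one was higher in LAY-15. Its summed level was 105 to 179 CPM in the LAY-15 seedlings and 28.7 to 47.0 CPM in those of YORK-09, with HV-11 at 22.3 to 45.1 CPM. The second run had 27.5 to 82.1 CPM in YORK-09 and 6.52 to 16.0 CPM in LAY-15, and 0.0891 to 16.5 CPM in HV-11. The third had 213 to 311 CPM in YORK-09 and 40.6 to 174 CPM in LAY-15, lowest in LAY-15-30, and 84.6 to 122 CPM in HV-11. The families did not overlap in any of the 3 sums, but the runs were chosen on the same counts. Without LAY-15-30, DESeq2 called 2, 2 and 0 of their 4 genes.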

How the data were processed

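RNA-seq libraries (TruSeq RNA v2, poly-A selected, paired-end) were made from leaves. The deposited values are raw read counts per gene, which the authors made by trimming with Cutadapt 2.3, aligning to the *Q. lobata* genome with STAR 2.7.1, discarding reads with several alignments (Samtools 1.9) and platform duplicates (Picard 2.20.3), and counting with htseq-count of HTSeq 0.11.1. Strand option and annotation version are not given in the sources used here. No measured column was left unmapped. Each library is a separate seedling.

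Counts of the 8 seedlings were filtered by family with filterByExpr (min.count 10, min.total.count 15), scaled by TMM and tested with edgeR 4.0.16 (glmQLFit, glmQLFTest) in R 4.3.3, with treatment and early or late day as covariates. DESeq2 1.42.0 and limma-voom (limma 3.58.1) were alternatives. Benjamini-Hochberg adjusted p-values under 0.05 over all genes tested were calls. Standard errors of log2 fold changes are approximations from the test statistic. Floors (3 reads) and folds against them cover counting error only. edgeR called no gene, so lists of calls are those of DESeq2. Distances used DESeq2's variance stabilizing transformation and exact permutation over groupings. Scripts were tested on simulated data. The genes given by identifier are the 2 in each direction with the smallest edgeR p-values, and the next 8, the most counted call, the first gene without LAY-15-30 and the most counted gene detected in one family only are described without theirs. The members and lists were chosen with earlier results of these data known. Figures were drawn with matplotlib 3.10.9.

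Alternatives were median-ratio size factors, no TMM factors, DESeq2, limma-voom, robust estimation, no filter, a literal CPM filter, other covariates, the treatment-by-day cells as a block, all 12 seedlings, seedlings of one day or treatment alone, and each seedling left out.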

Additional observations from a re-analysis of the deposited data

Results flagged for a closer look

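In 52 groups of 4 seedlings, 7 had a highest or lowest seedling whose gap to the nearest other, divided by the range, was above Dixon's critical value of 0.829 for 4 samples. Chance flags about 1 in 20 groups. No explanation was tested for any of them.

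QL11p006325 was flagged in YORK-09 for YORK-09-37, at 104.9 CPM against a next value of 21.3 CPM. The other 6 are genes described without identifiers. In YORK-09, one of the next 8 genes higher in LAY-15 had 13.0 CPM in YORK-09-03 against a next value of 7.03 CPM, and another had 0.818 CPM in YORK-09-08, below a next value of 2.04 CPM.

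In LAY-15, LAY-15-30 was the seedling apart in 3 of the 4 flagged groups. It had 8.45 CPM against 7.14 CPM of one gene higher in LAY-15, 3.88 CPM against 0.498 CPM of one gene higher in YORK-09, and 2.04 CPM against 0.397 CPM of the first gene higher in YORK-09 in the fit without LAY-15-30. For the latter gene LAY-15-30 was left out of the fit that chose it. The remaining flag was LAY-15-34, with 0.897 CPM against 0.0971 CPM of a gene higher in YORK-09.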

How the results depend on the processing

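edgeR called 0 genes in 21 of 22 alternative fits, with smallest adjusted p-values of 0.0295 to 0.94, and 14 (9 higher in LAY-15, 5 in YORK-09) without covariates. Without LAY-15-30 it called 0 in 12 of 13, and 12 without covariates. DESeq2 called 625 and 423. Its 625 calls became 141 with exact extraction day, 1006 with all 12 seedlings, 184 on day 30 with treatment and 269 with no covariate, 2397 in the early, 277 in the control and 376 in the 5-Azacytidine seedlings alone, and 297 (without LAY-15-34) to 1331 (without YORK-09-37) when each seedling was left out.

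The 1554 genes at an unadjusted p-value under 0.05 became 3063 with DESeq2, 2368 with limma-voom, 1018 with the literal CPM filter, 2606 without covariates, 591 with exact extraction day, 2528 with all 12 seedlings, 887 on day 30 with treatment and 1001 without, 3421 in the early and 774 in the control seedlings, and 968 to 2373 when each was left out. Without LAY-15-30, 1222 became 1968 with DESeq2, 634 with the literal filter, 1919 without covariates, and 801 to 1539 when another seedling was left out. The DESeq2 alternatives were in part chosen after seeing the data.

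The 47 genes detected in one family only became 12 with 0 counts required in the other family, 11 with at least 30 counts, and 57 to 82 with a seedling left out, which loosens the rule. The 1384 genes without overlap became 1813 to 2777 in the same way. The share of variation held by family was 24.7% on log2 CPM (exact permutation p = 0.0286), and 22.8% to 32.1% with each seedling left out (exact permutation p from 0.0286 without LAY-15-03 to 0.2). The coefficients of variation were 0.653 and 0.559 without covariates, and 0.57 to 0.681 in LAY-15 and 0.535 to 0.558 in YORK-09 with a seedling left out. DESeq2 called 119 genes for family by treatment and 986 for family by day, and edgeR without a filter called 1 for the latter. By replicate number, no paired analysis was possible because the families share only 03. Seedlings matched by treatment and early or late day, as a block, left DESeq2 at 617 calls and edgeR at 0. Without TMM factors, the genes without overlap split 486 to 825 in place of 639 to 745. The larger side of the DESeq2 calls turned from YORK-09 (266 to 359) to LAY-15 without covariates (464 to 354) and with treatment alone (364 to 341). No fold change of the 4 genes given by identifier changed sign in its 44 alternative fits. With 4 seedlings a family and extraction day tied to family in the early seedlings, the main edgeR fit called no difference, small or large. Log2 fold changes of 9.01 (QL07p044148) and -9.25 (QL11p006325) had an adjusted p of 0.187 from edgeR's quasi-likelihood test.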
